A study of Mus musculus with 40 samples.

Results

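Balb/c-2 and Balb/c-1 are consecutive passages of one mouse melanoma line through Balb/c mice, and their repeat-derived RNA is compared here. The members are the 7 libraries whose labels give these passages, of 40 samples in the series: 4 tumours of Balb/c-1 (A, B, C and D) and 3 tumours of Balb/c-2 (A, B and C). The line is YUMM1.7, derived from a C57BL/6 mouse melanoma that carries activated Braf. Balb/c is another inbred strain, so the cells were grown in hosts of a different genetic background. Each library was made from poly(A) RNA of cells that had been dissociated from 1 tumour and grown in culture, and no treatment beyond the passage is named. The labels give neither the age nor the sex of the host mice. A second set of 3 libraries, labelled rep2, came from the same Balb/c-2 tumours. It shares its Balb/c-1 comparison samples with the main contrast, so its values are set beside the results and add no independent test. Neither passage was run again with new tumours, so no p-value takes in how far a repeated passage would differ. In the main contrast the p-values rest on a spread within groups that all 11 groups of the series share. It is thus not the spread between Balb/c-1 and Balb/c-2 tumours alone. Those groups include the YUMM1.7 cells and rep2, which enters the Balb/c-2 tumours again. Sequencing batches are named in the labels without being assigned to libraries, so batch and passage cannot be told apart. The library names of rep2 carry identifiers that those of Balb/c-1 and Balb/c-2 lack. Their last part differs between rep2 B and the A and C libraries of that set.

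Transposable elements are repeated sequences that fill a large part of the mouse genome. Long terminal repeat (LTR) elements, among them the IAP, VL30 and MMERGLN families, descend from retroviruses, and their internal parts are flanked by LTRs that can act as promoters. LINE elements copy themselves through RNA, and the short SINE elements, such as B1 and B2, depend on the LINE machinery. Host cells keep most copies silent through DNA methylation and histone H3 lysine 9 methylation, and RNA from active copies can be sensed by the interferon system. Many copies also lie inside the exons of ordinary genes, above all in 3' UTRs, where their reads follow the transcript of the gene. A value for a host gene below is the summed signal of the repeat copies that overlap its exons, and is not the expression of the whole gene.

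The deposited table holds 835636 annotated copies. Its values, called signal here, are read counts that the authors divided by 1 factor per library. The 7 libraries held between 1690015 and 2342103 reads in copies, with 143864 to 216433 copies above 0, and 1 read was worth 0.883 to 1.21 of signal. Both tumour B libraries had the highest share of signal in introns, 24.6% in Balb/c-1 and 24% in Balb/c-2, against 17.7% to 20.2% in the other 5. On the first principal component of 5029 well-covered copies (37.5% of the variance) the 4 Balb/c-1 libraries lay between -24.8 and -5.70 and the 3 Balb/c-2 libraries between 0.86 and 33.2. Balb/c-2 B sat closest to Balb/c-1, and Balb/c-2 C farthest from it. In these bulk samples, fewer cells of a type and less RNA per cell cannot be told apart. The library protocol allows for directional and non-directional libraries, and the sources used here do not give the strand setting of the counting, so a copy's reads cannot be assigned to sense or antisense RNA.

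Single copies, repeat subfamilies and host genes were each tested across the whole table with limma on log2(signal + 1). A feature counts as called where its Benjamini-Hochberg adjusted p is below 0.05. The log2 fold changes given are Balb/c-2 minus Balb/c-1 on that scale, with the standard error (SE), and they understate changes of low values. Of 33215 single copies tested, limma called 0 as higher (0%) and 0 as lower (0%) in Balb/c-2, although 1866 higher and 1654 lower copies had an unadjusted p under 0.05. On the recovered reads, edgeR called 0 higher and 0 lower copies, and DESeq2 called 19 and 14. Of 1004 subfamilies, limma called 0 as higher (0%) and 0 as lower (0%), with 106 and 29 at an unadjusted p under 0.05, and neither edgeR nor DESeq2 called any, 0 in each direction. Of 7408 host genes, 4 were called higher (0.054%) and 6 lower (0.081%).

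Overlap between the groups gives a second, untested description of the same values. For single copies, every Balb/c-2 library lay above every Balb/c-1 library at 1803 (5.43%), and below at 1283 (3.86%). The same held for 75 (7.47%) higher and 24 (2.39%) lower subfamilies, and for 536 (7.24%) higher and 414 (5.59%) lower host genes. The excess of higher features depended on the scale. With TMM factors the counts were 1358 higher and 1525 lower copies, 40 and 51 subfamilies, and 455 and 461 host genes. The median log2 fold change over all host genes was 0.03 on the deposited scale and 0.01 with TMM factors.

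**Figure D1:**
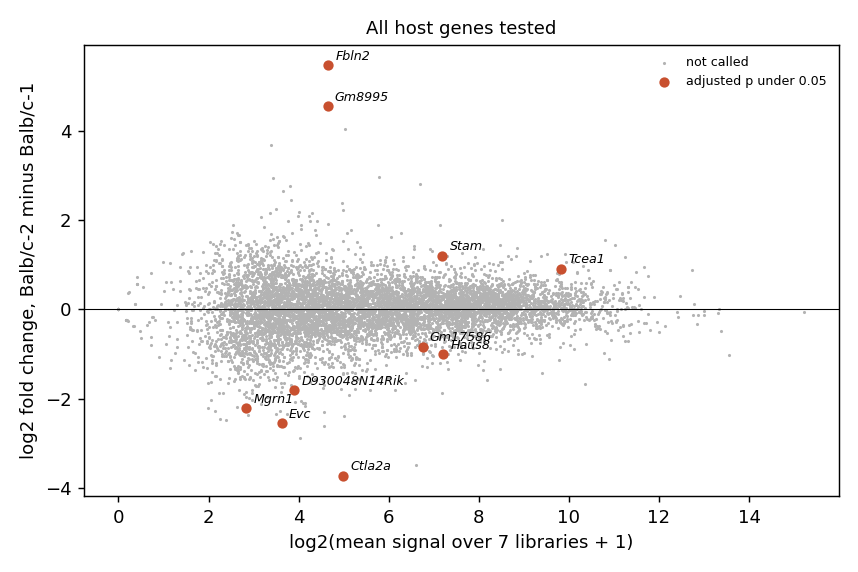
All 7408 host genes tested. The x axis gives log2 of the mean signal over the 7 libraries plus 1, the y axis the log2 fold change of Balb/c-2 against Balb/c-1, and the coloured points are the 10 called genes; the 4 called higher lie between 0.92 and 5.48 and the 6 called lower between -3.73 and -0.83.

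The 4 host genes that rose in Balb/c-2 were Fbln2, Gm8995, Stam and Tcea1. Fbln2 encodes fibulin-2, a secreted protein of basement membranes and elastic fibres. Its copies gave 0, 0, 0 and 1.04 in Balb/c-1 A to D, and 84.6, 32.5 and 51.5 in Balb/c-2 A to C. The rise was 5.48 ± 1.21 (log2, SE) with an adjusted p of 0.0491 (limma). These copies were thus at or near 0 in all 4 libraries of the first passage and read in all 3 of the second. The rep2 libraries gave 70.5, 40.9 and 63.5. Group means elsewhere in the series ran from 1.61 in YUMM1.7 cells to 25.8 in F2. Its signal came from 3 copies in the gene: a coding-exon copy of RLTR13D3, an ERVK-type LTR, at chr6:91263461-91263585, and 2 B1_Mur1 copies in the 3' UTR. The RLTR13D3 copy was the 1 copy in the table with at least 10 reads in every Balb/c-2 library and 0 in every Balb/c-1 library. It held 31, 13 and 17 reads, which puts it at least 8.35-fold higher against a floor of 3 reads per library (counting error only). There were 0 copies with the opposite pattern.

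Gm8995 is annotated as a transcribed unprocessed pseudogene on chromosome 7. Pseudogene reads may belong to near-identical copies, so its value is uncertain. Its signal was 2.76, 0, 0 and 0 in Balb/c-1 A to D and 128, 29.1 and 8.02 in Balb/c-2 A to C (4.55 ± 0.83, adjusted p = 0.0123 by limma). The 3 Balb/c-2 values did not overlap those of Balb/c-1 but differed widely among themselves, and rep2 kept their order with 75.8, 23.2 and 3.03. All of the signal lay in 1 L1MdV_I copy at chr7:106504237-106504389. Tested as a single copy, it had an adjusted p of 0.0505 and was not called.

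Stam encodes an adaptor of the endosomal sorting machinery that handles ubiquitinated receptors. It gave 84.8, 124, 77.8 and 73.9 in Balb/c-1 A to D and 182, 145 and 326 in Balb/c-2 A to C. The rise was 1.21 ± 0.25 (adjusted p = 0.0491, limma), carried mostly by a B1_Mus1 copy in the 3' UTR (between 47.1 and 87.4 in the first passage, between 99.8 and 252 in the second). In rep2 Stam was at 208, 157 and 322. Tcea1, which encodes the transcription elongation factor TFIIS, gave 739.9, 845, 622 and 456 in Balb/c-1 and 1406, 968 and 1351 in Balb/c-2, from 1 B1_Mus2 copy in its 3' UTR. It rose by 0.92 ± 0.20 (adjusted p = 0.0491, limma). The repeat libraries of the same tumours did not show this level: rep2 gave 736, 766 and 781, within the Balb/c-1 range, and 0.23 against Balb/c-1 (adjusted p = 0.603, limma).

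The 6 host genes that fell were Evc, Ctla2a, Mgrn1, D930048N14Rik, Haus8 and Gm17586. Evc had the smallest adjusted p of all host genes. It encodes a ciliary protein that acts in Hedgehog signalling. Its exon copies gave 25.8, 7.06, 24 and 15.6 in Balb/c-1 A to D and 1.21, 4.48 and 1.15 in Balb/c-2 A to C, a fall of 2.55 ± 0.42 on the log2 scale (limma log2 fold change -2.55, adjusted p = 0.00485). In rep2 of the same tumours it stood at 13.3, 7.74 and 9.08, overlapping Balb/c-1 (-0.68, adjusted p = 0.412, limma). The signal was spread over copies in 1 coding exon and noncoding exons.

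Ctla2a encodes a small protein related to the propeptide of cysteine proteases. It gave 176, 5.30, 7.69 and 22.9 in Balb/c-1 and 0, 1.12 and 1.15 in Balb/c-2 (-3.73 ± 0.82, adjusted p = 0.0491, limma), with most of the signal in an L1MdV_I copy of its 3' UTR. Balb/c-1 A stood far above the other 3, yet these too lay above all Balb/c-2 libraries. Without Balb/c-1 A the log2 fold change was -2.72 and the call was lost (adjusted p = 0.138, limma). Mgrn1, an E3 ubiquitin ligase whose loss darkens the coat, gave 9.21, 12.4, 10.6 and 6.24 in Balb/c-1 and 2.42, 2.24 and 0 in Balb/c-2 (-2.21 ± 0.47, adjusted p = 0.0491, limma). These are few reads, some of the copies are shared with an overlapping gene, and rep2 lay between the groups at 5.32, 5.53 and 3.03.

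Haus8, a subunit of the augmin complex that branches spindle microtubules, gave 168, 168, 218 and 190.4 in Balb/c-1 and 128, 85.2 and 71.0 in Balb/c-2 (-1.0 ± 0.21, adjusted p = 0.0491, limma). The rep2 values of 85.2, 91.7 and 59.0 were as low. Its main copy is an MTE2a LTR in the 3' UTR. Gm17586, a predicted noncoding gene, gave 128, 117, 144 and 138 in Balb/c-1 and 79.7, 77.3 and 64.1 in Balb/c-2 (-0.83 ± 0.18, adjusted p = 0.0491, limma), and 82.5, 90.6 and 77.2 in rep2. D930048N14Rik gave 13.8, 16.8, 25 and 26 in Balb/c-1 and 8.46, 2.24 and 5.72 in Balb/c-2 (-1.81 ± 0.39, adjusted p = 0.0491, limma). Its rep2 values of 14.6, 12.2 and 6.05 overlapped Balb/c-1. Most of the 10 calls sat just under the threshold. Leaving out Balb/c-1 C ended all of them, with 0 of the 10 still called. Leaving out Balb/c-1 D or Balb/c-2 C left 1, Balb/c-1 A 2 and Balb/c-2 A 4. Without Balb/c-1 B all 10 stayed, and without Balb/c-2 B 9. From the 7 libraries alone 1 was still called, and with a block by tumour letter 0. With rep2 in place of Balb/c-2, 6 were called. Of the 10, edgeR called 3 and DESeq2 7.

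**Figure D2:**
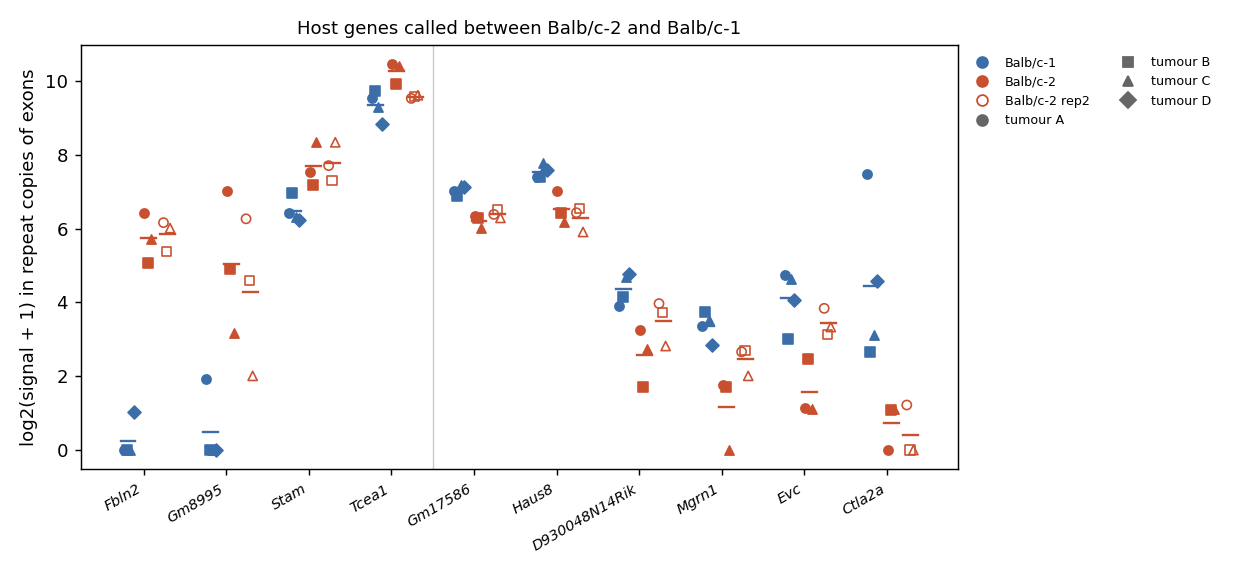
Signal of the called host genes in each library, as log2(signal + 1), with filled points for Balb/c-1 and Balb/c-2, open points for Balb/c-2 rep2, 1 marker shape per tumour letter and bars for group means. Fbln2 separates the passages most, at most 1.04 in Balb/c-1 and between 32.5 and 84.6 in Balb/c-2, while the rep2 points of Tcea1 and Evc fall back among those of Balb/c-1.

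The stretches below show the exon part of the copies in 5 of these genes, while the signal was counted over each whole copy. They come from GENCODE M21 transcripts on mm10, 5′ to 3′ of the transcript, and capitals mark the bases that the repeat copy covers; lower-case bases are flanking exon. The Fbln2 stretch is chr6:91263401-91263473 (plus strand), the Gm8995 stretch chr7:106504239-106504449 (minus), the Evc stretch chr5:37297127-37297236 (minus), the D930048N14Rik stretch chr11:51653734-51653871 (plus) and the Gm17586 stretch chr11:120633815-120634050 (plus). In Fbln2, 13 of the 125 bases of the RLTR13D3 copy lie in the coding exon, in Evc 95 of the 180 bases of the Lx5c copy, and in Gm8995 the copy covers 151 bases of the exon.
Fbln2, RLTR13D3: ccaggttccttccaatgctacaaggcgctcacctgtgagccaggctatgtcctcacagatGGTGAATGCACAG
Gm8995, L1MdV_I: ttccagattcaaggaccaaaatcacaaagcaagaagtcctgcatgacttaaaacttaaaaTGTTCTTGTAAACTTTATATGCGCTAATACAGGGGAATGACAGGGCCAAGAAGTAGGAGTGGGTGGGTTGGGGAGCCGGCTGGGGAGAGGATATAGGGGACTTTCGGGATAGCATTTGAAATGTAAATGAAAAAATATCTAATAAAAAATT
Evc, Lx5c: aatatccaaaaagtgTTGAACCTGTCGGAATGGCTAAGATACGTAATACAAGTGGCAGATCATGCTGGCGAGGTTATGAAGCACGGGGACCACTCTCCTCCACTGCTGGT
D930048N14Rik, RSINE1: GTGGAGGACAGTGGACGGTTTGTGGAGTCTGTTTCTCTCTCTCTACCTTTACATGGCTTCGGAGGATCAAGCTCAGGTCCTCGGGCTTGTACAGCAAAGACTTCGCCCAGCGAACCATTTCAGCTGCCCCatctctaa
Gm17586, PB1D7: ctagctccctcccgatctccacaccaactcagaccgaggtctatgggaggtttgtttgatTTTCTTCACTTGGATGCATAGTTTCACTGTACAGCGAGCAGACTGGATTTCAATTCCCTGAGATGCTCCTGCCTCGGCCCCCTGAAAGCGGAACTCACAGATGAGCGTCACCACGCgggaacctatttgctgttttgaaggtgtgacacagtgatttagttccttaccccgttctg

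H2-Q7 and 3 genes chosen after their values were seen did not pass. H2-Q7 encodes a nonclassical MHC class I molecule. It gave 0.921, 0, 0 and 2.08 in Balb/c-1 and 30.2, 22.4 and 10.3 in Balb/c-2 (3.70 ± 0.84, adjusted p = 0.0545, limma), and its near-identical H2-Q neighbours make the assignment of its reads uncertain. Pvr, the poliovirus receptor CD155, which is a ligand of receptors on natural killer and T cells, gave 1069.8, 1499, 977 and 859 in Balb/c-1 and 2781, 1531 and 5940.3 in Balb/c-2 (1.45 ± 0.34, adjusted p = 0.0584, limma). Hpse, the heparanase that cleaves heparan sulphate in the matrix, gave 31.3, 24.7, 33.6 and 16.6 against 280.3, 98.6 and 231 (2.81 ± 0.67, adjusted p = 0.0654, limma). Cd274, the checkpoint ligand PD-L1, gave 46.1, 36.2, 44.2 and 14.6 against 117, 69.5 and 127 (1.62 ± 0.59, adjusted p = 0.211, limma). In all 4 genes each Balb/c-2 library lay above each Balb/c-1 library, as in 7.24% of all host genes. H2-Q7 was chosen by this rule and the other 3 with their values known, so the separation carries no weight of its own. Balb/c-2 B was the lowest or the middle of its group.

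Genes of cholesterol and fatty acid synthesis were the list with the lowest median. These enzymes build sterols from acetyl-CoA, and their transcription is driven by the SREBP factors, which Insig1 holds back when sterols are plentiful. Of 28 genes listed, 22 had exon copies and 21 were tested. None passed (0 called in either direction), but 9 were lower in every Balb/c-2 than in every Balb/c-1 library, beside 5.59% of all host genes, and 0 were higher. The log2 fold change was negative in 20 of the 21, with a median of -0.89 against 0.03 for all host genes. Idi1, which isomerises isopentenyl diphosphate, gave 306, 276, 414 and 454 against 163, 235 and 68.7 (-1.35 ± 0.42, adjusted p = 0.134, limma). Insig1 gave 45.1, 38.0, 47.1 and 46.8 against 20.5, 35.9 and 1.15 (-1.92 ± 0.65, adjusted p = 0.176, limma). In both genes Balb/c-2 C was the lowest library and Balb/c-2 B lay nearest to Balb/c-1. Members of this list without overlap, Idi1 and Insig1 among them, were named after their values were seen.

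Another 6 without overlap were Lss, Cyp51, Msmo1 and Mvk, enzymes of the route, Stard4, which carries sterols, and Scd2. Scd2, a stearoyl-CoA desaturase and the highest member, gave 15056, 12004, 15480.5 and 17260.0 against 9672, 11024 and 3589 (-1.03 ± 0.43, adjusted p = 0.286, limma). Lss, which closes the sterol rings, gave 1081, 955, 1307 and 1106 against 832, 882 and 388, and some of its copies are shared with another gene. Cyp51, the lanosterol demethylase, gave 1184, 1087, 1463 and 1175 against 1016, 977 and 354. These levels again placed Balb/c-2 C well below the other 2. The median over members of a library's log2 deviation from the Balb/c-1 mean lay between -0.21 and 0.10 in Balb/c-1 and was -0.41, -0.32 and -1.62 in Balb/c-2 A, B and C. Without Balb/c-2 C the list's median was -0.47. The summed signal was 18946 to 26509 in Balb/c-1, 16339.6, 17848 and 7203 in Balb/c-2, and 14904, 18656 and 7738 in rep2.

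**Figure D3:**
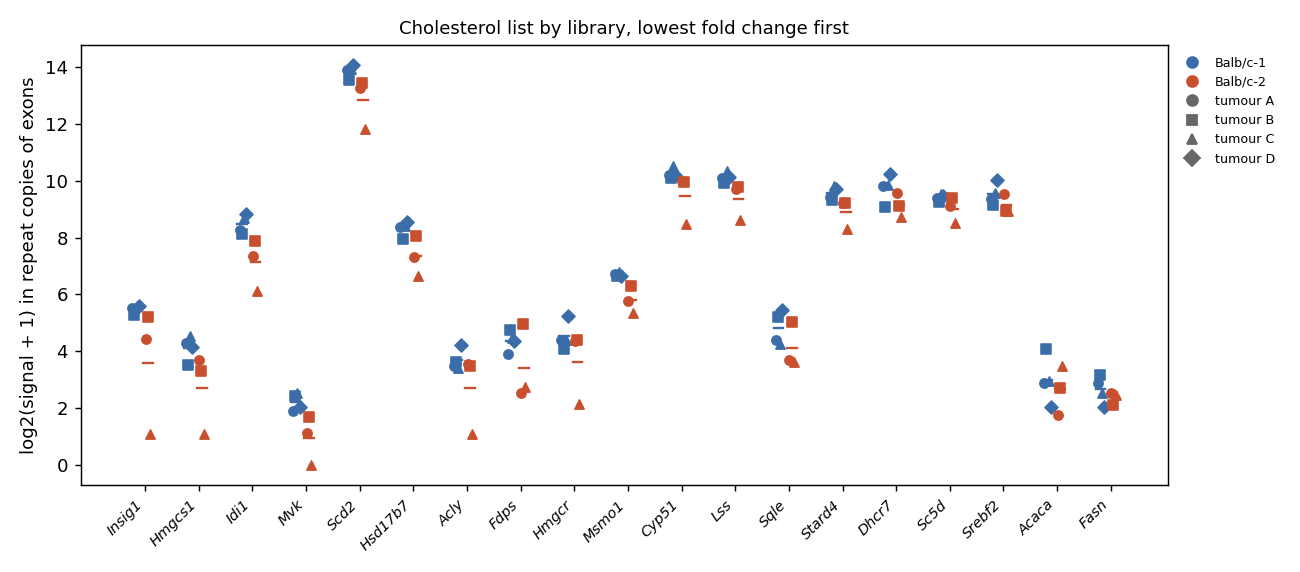
The 19 members of the cholesterol list that are shown, by library, as log2(signal + 1) of the repeat copies in their exons. Balb/c-2 C lies lowest for most members, for example at 68.7 for Idi1 and 1.15 for Insig1; bars are group means.

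The sterol regulatory element offers 1 sequence view of this list. The letters TCACNCCAC were searched on both strands in the 250 bases before each RefSeq start (GRCm38.p6), and occurred in 280 of 27025 promoters (1.04%) and in 1 of the 18 promoters found for the list, that of Hmgcs1. Hmgcs1 makes HMG-CoA, and its copies gave 18.4, 10.6, 22.1 and 16.6 in Balb/c-1 and 12.1, 8.97 and 1.15 in Balb/c-2. The stretch shown is chr13:119690189-119690247 (plus strand), with the match in capitals.
Hmgcs1: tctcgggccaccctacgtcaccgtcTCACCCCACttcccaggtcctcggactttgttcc

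Proliferation genes followed with the next lowest median among the host gene lists. None of 27 tested was called (0 higher, 0 lower), 24 had a negative log2 fold change, the median was -0.49, and 4 (Cdk1, Aurkb, Melk and Gins1) were lower in every Balb/c-2 library, beside 5.59% of all host genes. Aurkb, the kinase of the chromosomal passenger complex, gave 626, 584, 771 and 856 in Balb/c-1 and 505, 507 and 355 in Balb/c-2 (-0.64 ± 0.23, adjusted p = 0.216, limma). Cdk1, the kinase that drives entry into mitosis, gave 18.4, 25.6, 35.5 and 14.6 against 12.1, 11.2 and 5.73 (-1.19 ± 0.39, adjusted p = 0.161, limma). The highest members had smaller differences: Top2a -0.41 ± 0.28, Mcm6 -0.58 ± 0.25 and Rrm2 -0.51 ± 0.29. Within Balb/c-1, tumours C and D were the high ones, with sums of 5695 and 6663 against 4067 and 4329 in A and B. Balb/c-2 A, B and C summed to 3463, 4476 and 2789, so the groups overlapped.

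Antigen presentation genes leaned the other way. This list holds the MHC class I heavy chains, the peptide transporter and its helpers. Of 20 tested, 0 were called, 15 had a positive log2 fold change, the median was 0.57, and 3 (H2-Q7, H2-T24 and Cd274) were higher without overlap, beside 7.24% of all host genes. H2-D1, a classical class I heavy chain, gave 8776, 4634, 4284 and 3001 in Balb/c-1 and 9762, 9704 and 7360.4 in Balb/c-2 (0.89 ± 0.40, adjusted p = 0.317, limma). H2-Q4 gave 2427, 563, 942 and 420.4 against 3361, 3199 and 1487 (1.55 ± 0.91, adjusted p = 0.469, limma). In both genes Balb/c-1 A alone reached the Balb/c-2 range. H2-T22 and the loading factor Tapbp, also among the highest members, differed by 0.40 ± 0.42 and 0.31 ± 0.49. The natural killer cell ligand gene Ulbp1 had the opposite sign (533, 271, 641 and 1179 against 249, 294 and 319.5).

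Interferon-inducible genes had a positive median of 0.46, and their values turned on single tumours. Of 38 tested, 0 were called, although 35 log2 fold changes were positive. In either direction 0 separated the groups without overlap, beside 7.24% (higher) and 5.59% (lower) of all host genes. Ifit1, which binds foreign RNA caps, gave 3171, 1795, 2709 and 801 in Balb/c-1 and 4058, 2062 and 1635 in Balb/c-2 (0.35 ± 0.92). Eif2ak2, the double-stranded RNA kinase PKR, gave 4172, 3648, 3978 and 2331 against 4906, 3975 and 3685 (0.27 ± 0.38). Oas3, an oligoadenylate synthetase, gave 840.3, 422, 589 and 79.1 against 1502, 584 and 645 (1.20 ± 1.25). In each of them Balb/c-1 D was the lowest of the 7 and Balb/c-2 A the highest, and the other 5 overlapped. Oasl2 and Ifi44 differed by 0.61 ± 1.17 and 1.17 ± 1.26. Without Balb/c-1 D the median of the list was 0.10, and without Balb/c-2 A it was 0.16, while it was 0.70 without Balb/c-1 A and 0.72 without Balb/c-2 C. The core of the interferon-stimulated response element lay on either strand of 3 of 26 antigen presentation promoters found (B2m, H2-T23 and H2-T22) and of 821 of 27025 promoters in all (3.04%).

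**Figure D4:**
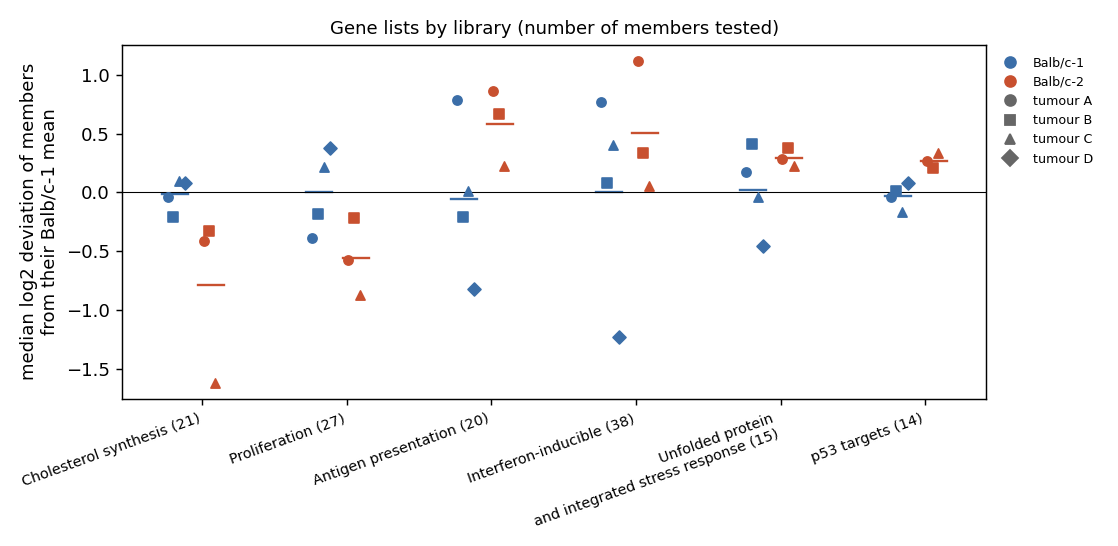
Deviation of each gene list in each library, as the median over its tested members of log2(signal + 1) minus its mean over the Balb/c-1 libraries, for 6 of the lists, with the number of members in brackets and bars for group means. Balb/c-2 C stands at -1.62 for cholesterol synthesis and Balb/c-1 D at -1.23 for interferon-inducible genes, each far from the other libraries of its passage.

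Stress and p53 genes showed smaller positive medians, with 0 called in each list. In the unfolded protein and integrated stress response list (15 tested, median 0.30), Sel1l, part of the complex that exports misfolded proteins from the endoplasmic reticulum, and Cebpg, a partner of ATF4, were higher without overlap, beside 7.24% of all host genes. The list's median was 0.59 without Balb/c-2 B and 0.19 without Balb/c-2 C. Cebpg gave 622, 732, 557 and 383 in Balb/c-1 and 838, 866 and 849 in Balb/c-2 (0.61 ± 0.16, adjusted p = 0.0988, limma). Sel1l gave 459.8, 473, 309 and 266 against 586, 503 and 633 (0.64 ± 0.17, adjusted p = 0.103, limma). Atf6, a membrane-bound sensor of this response, came near with 1338, 1986, 1216 and 1063 against 2184, 1916 and 3736 (0.88 ± 0.24, adjusted p = 0.11, limma), where Balb/c-2 B lay below Balb/c-1 B. Shmt2 and Xbp1 differed by 0.02 ± 0.30 and 0.11 ± 0.20. Of 14 p53 targets (median 0.28), Eda2r alone was higher without overlap (146, 159.8, 182 and 169.6 against 217, 201 and 298), beside 7.24% of all host genes. Mdm2, the ligase that degrades p53, gave 1002, 900.4, 975 and 1273 against 1414, 1066 and 3201 (0.72 ± 0.35), while Ccng1 and Tnfrsf10b differed by -0.24 ± 0.34 and 0.24 ± 0.30.

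The silencing, matrix, hypoxia, MAPK, imprinted and cancer-testis lists also had 0 called members. Among 33 genes that silence or sense retroelements (median 0.03, and -0.059 to 0.082 with 1 library left out), 4 (Zfp932, Fam208a, Ehmt1 and Resf1) were higher and 1 (Dnmt3b) lower without overlap, beside 7.24% and 5.59% of all host genes. With rep2 in place of Balb/c-2 the log2 fold change of Fam208a was -0.26. Zfp932, a KRAB zinc finger gene, gave 161, 225, 202 and 210.2 against 275, 229 and 385 (0.54 ± 0.18, adjusted p = 0.171, limma). The highest members of that list, Cbx5, Samhd1, Pphln1 and Apobec3, differed by -0.38, 0.13, 0.05 and 0.18. Matrix and mesenchymal genes (17 tested) had a median of 0.21, which was 0.087 without Balb/c-1 C, 0.11 without Balb/c-1 D or Balb/c-2 A, -0.03 without Balb/c-2 B and 0.00 without Balb/c-2 C. Of the 17, 1 was higher without overlap, Col6a2, beside 7.24% of all host genes. The highest members Prrx1, Col4a2, Postn and Itgav differed by 0.34, 0.25, 0.26 and -0.33. In the hypoxia and glycolysis list (15 tested, median 0.16) Pfkp alone was higher without overlap, beside 7.24% of all host genes, and Ero1l, Pfkl, Pdk1 and Egln3 differed by 0.95, -0.21, 0.45 and 0.05. The median of this list was 0.34 without Balb/c-1 A or Balb/c-2 C, 0.25 without Balb/c-1 B, 0.11 without Balb/c-1 C and 0.084 without Balb/c-2 B. The 4 MAPK targets tested had a median of 0.10, and of -0.0051 without Balb/c-1 A, 0.18 without Balb/c-1 D and 0.23 without Balb/c-2 A (Etv1 0.46, Spred3 -0.10, Kcnn4 -0.04, Epha2 0.24). The 9 imprinted genes had a median of 0.00 (Impact 0.14, Airn 0.05, Kcnq1ot1 -0.33, Peg13 -1.40), and the 1 cancer-testis gene tested, Sycp3, differed by 0.51 (0.23 without Balb/c-2 A and 0.87 without Balb/c-2 C).

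Markers of melanocytes and of other cell types were read in the same way. Of 29 melanocyte genes, 12 had exon copies and 4 were tested: Gpnmb, Pax3, Mlph and Myo5a, with log2 fold changes of -0.43, -0.66, 0.53 and 0.06. Their copies were read in all 7 libraries. Mlana and Slc24a5 were at 0 in all 7 libraries and Tyr in 6, so these pigment genes did not mark the cells through their repeat copies. The fibroblast list held Fbln2 itself. Pdgfra was higher without overlap (385, 298, 254 and 256 against 492, 418 and 389), beside 7.24% of all host genes. Pdgfrb differed by -0.07, while Dcn, Thy1 and Fap were each at 0 in 6 of 7 libraries. The whole list, 11 genes in the table, summed to 1369 to 2189 in Balb/c-1 and 1270.1 to 2253 in Balb/c-2. Of 13 leucocyte genes in the table, Ptprc, Itgam, Cd3g, Cd4, Tyrobp and Spi1 were at 0 in all 7 libraries, and the list summed to 28.2 to 40.5 and 32.6 to 47.1. Fcgr3, a macrophage and natural killer cell Fc receptor, was at 2.76, 1.77, 3.84 and 5.20 in Balb/c-1 and 12.1, 8.97 and 10.3 in Balb/c-2. Cd14, the 1 leucocyte gene tested, was lower without overlap (-0.75), beside 5.59% of all host genes. Cybb was read at 14.6 in Balb/c-2 B, at 1.21 in Balb/c-2 A and at 0 in the other 5. The part of these markers in the differences of Fbln2 and of the MHC, Pvr, Hpse and Cd274 copies was not tested. Endothelial and epithelial lists summed to at most 5.53 and 2.24 in any of the 7 libraries.

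Among endogenous retroviruses, 0 of the subfamilies in the 23 repeat lists were called. MMVL30-int, the internal part of VL30 elements, summed to 16296, 11121, 11828 and 10747 in Balb/c-1 and 17396, 13147 and 40297 in Balb/c-2 (0.77 ± 0.37, adjusted p = 0.357, limma). The value of Balb/c-2 C came largely from 1 intergenic copy at chr2:75638103-75642944. That copy gave 3576, 3011, 1128 and 804 in Balb/c-1 and 5607, 3774 and 28200.1 in Balb/c-2 (2.25 ± 0.64, adjusted p = 0.151, limma), and 29515 in rep2 C. It held 70.0% of the family in Balb/c-2 C and 7.48% to 27.1% in Balb/c-1. Without it the family stood at 8109.9 to 12720.0 in Balb/c-1 and 9373 to 12097 in Balb/c-2. The next copies, at chr11:86811739-86815896 and chr17:21474312-21478208, differed by 0.87 ± 0.45 and 0.12 ± 0.22.

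IAPEz-int, the internal part of the IAP family, summed to 20058, 6466, 7026 and 7082 in Balb/c-1 and 9736, 7444 and 5369 in Balb/c-2 (-0.30 ± 0.30, adjusted p = 0.68, limma). A pair of adjoining copies in an intron of Wdr49, at chr3:75348451-75351749 and chr3:75352188-75353268, were high in the A tumour of both passages. The first gave 2867, 2.65, 1.92 and 0 against 1055, 0 and 2.29, and the second 2628, 0, 0 and 0 against 779, 1.12 and 0. A copy at chr8:39379418-39385804 was instead read in the B tumours, at 66.2 in Balb/c-1 B and 462 in Balb/c-2 B, with 0 to 2.08 in the other 5. A copy at chr7:137641669-137646974 gave 300.4, 501, 229.6 and 374 against 15.7, 380.0 and 22.9, low in Balb/c-2 A and C alone. A copy at chr11:12954023-12957643 was read at 448 and 498 in Balb/c-1 A and C and at no more than 7.95 in the other 5. Letters name different tumours, and the sources used here do not say whether tumours of the same letter in the 2 passages are related. Without both Wdr49 copies the family stood at 6464 to 14563 in Balb/c-1 and 5366 to 7902 in Balb/c-2, with Balb/c-1 A still the highest.

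MMERVK10D3_I-int, of the MMERVK10C group, varied between tumours more than between passages, with 4711, 15838, 5645 and 10701 in Balb/c-1 and 2476, 11654 and 1737 in Balb/c-2 (-1.15 ± 0.56, adjusted p = 0.357, limma). Its highest copy, in an intron of Zdhhc14 at chr17:5522679-5524684, gave 2107, 4638, 1114 and 5922 against 381, 4791 and 269. Copies at chr11:31545550-31548795 and chr11:31548819-31549712 were highest in the B tumour of each passage, at 5505 and 4196 in Balb/c-1 B. MMERGLN-int was the retroviral family with most signal, 41856, 56141, 45559 and 45534 against 38434, 54332 and 37276 (-0.14 ± 0.22). Between 80.1% and 91.5% of it came from 1 copy at chr8:121832845-121841264, in an exon of Gm42047, which differed by -0.06 ± 0.26. Its second copy, at chr17:34997828-34999344, gave 4682, 7026, 7344 and 7613 against 3591, 6821 and 1527 (-0.97 ± 0.37, adjusted p = 0.322, limma).

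**Figure D5:**
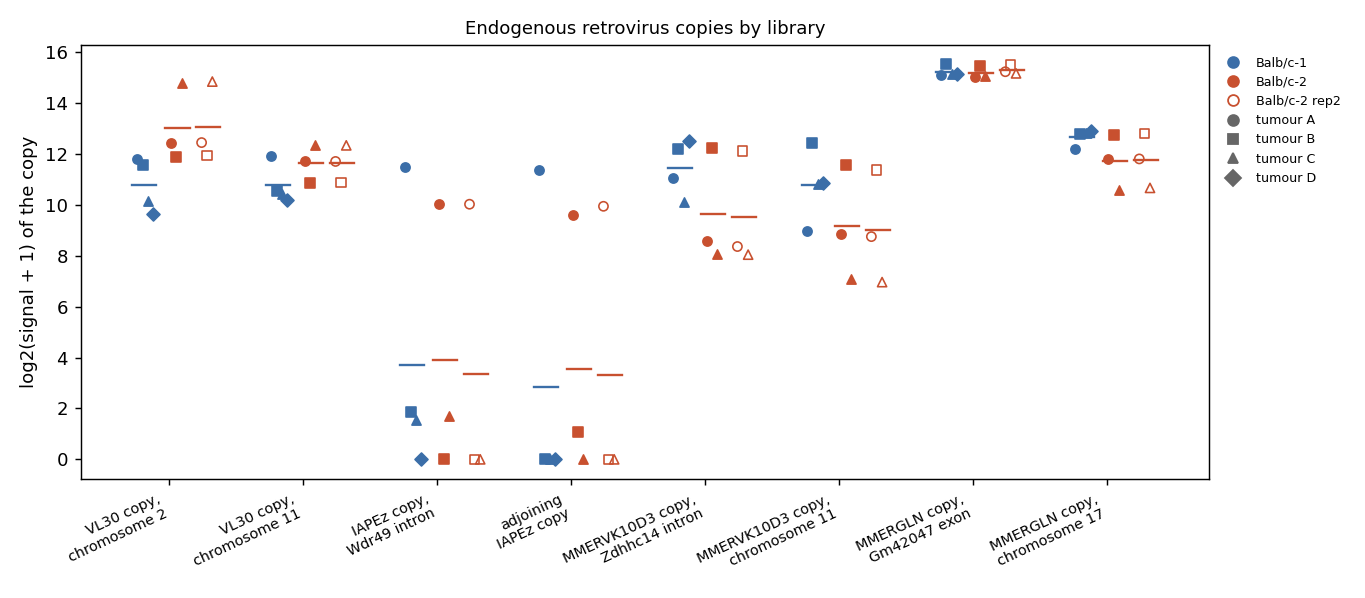
Single endogenous retrovirus copies by library, as log2(signal + 1), 1 column per copy, with open points for rep2 and 1 marker shape per tumour letter. The VL30 copy of chromosome 2 reaches 28200.1 in Balb/c-2 C, and the Wdr49 intron copy of IAPEz-int is high in the A tumours at 2867 and 1055. Bars are group means on the log2 scale.

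MERVL-int, of the family active in the early embryo, gave 931, 1101, 883 and 1035 against 883, 1123 and 1065, and RLTR4_MM-int, of the murine leukaemia virus group, 7093, 8316, 8462 and 8135 against 7114, 7092 and 5696 (-0.27 ± 0.13, adjusted p = 0.345, limma). B1_Mm gave 17698 to 19228 in Balb/c-1 and 17419 to 18735 in Balb/c-2 (0.00 ± 0.06), and its sign was negative with TMM factors. B2_Mm2 gave 32465 to 40006 and 36391 to 39712 (0.11 ± 0.09). Among subfamilies chosen because they were higher without overlap (7.47% of all tested), Lx8b, RLTR26_Mus, MLT1A-int, IAPEY_LTR and RLTR18B had the smallest p. They were higher by 0.37, 0.92, 1.06, 0.56 and 0.73 (each adjusted p = 0.124, limma, which ORR1F shared). RLTR26_Mus gave 756, 853, 679 and 561 against 1336, 887 and 2012, but outside exons its log2 fold change was -0.17, and 1 copy in the 3' UTR of Pvr alone gave 795, 425 and 1574 in Balb/c-2. The lower side was chosen in the same way, from the 2.39% that were lower without overlap. There MTB-int gave 1853, 2159, 2279 and 2878 against 1618, 1804 and 1383 (-0.51 ± 0.15, adjusted p = 0.138, limma). It was followed by Tigger12c (-0.83), MER34A1 (-0.53), X7C_LINE (-1.15) and RLTR13A1 (-0.64). Outside exons the log2 fold change of MER34A1 was 0.36. X7C_LINE lay between 9.95 and 12.1 in rep2, above every Balb/c-1 library, with a log2 fold change of 0.60 against Balb/c-1.

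The 2 highest subfamilies of each repeat list had the following log2 fold changes, none of them called. Among retroviral lists they were 0.28 for IAPEY4_I-int, 0.79 and -0.03 for ETnERV2-int and ETnERV-int, -0.03 for RLTR10-int, -0.14 for MuLV-int, -0.26 for RLTR6-int, 0.36 for RLTR1B-int, 0.05 and 0.90 for RLTR45-int and ERVB2_1-I_MM, -0.19 and 0.09 for RLTR20A4 and RLTR20C1_MM, and 0.02 for MMTV-int. The MMTV repeat RLTR3_Mm was at 0 in all 7 libraries. Among the MERVL, MaLR and RMER lists they were -0.08 for MT2B2, 0.07 for MERVL_2A-int, 0.03 for MTD, 0.02 for MTC, -0.06 for ORR1B1-int, 0.32 for ORR1F, 0.50 for RMER19B and 0.13 for RMER15. LINE subfamilies gave 0.16 (L1MdGf_II), 0.28 (L1MdA_VII), -0.09 (L1MdF_III), 0.38 (L1MdFanc_I), 0.27 (Lx8), 0.18 (Lx9), 0.18 (L2c) and -0.15 (L2a). SINE subfamilies gave 0.05 (PB1D10), 0.12 (B1_Mus1), 0.04 (B3), 0.11 (B3A), 0.01 (ID_B1), 0.09 (RSINE1), -0.05 (MIRb) and -0.09 (MIR3). DNA transposons and satellites gave 0.22 (URR1B), 0.07 (URR1A), 0.12 (MurSatRep1) and 0.09 (MMSAT4). ORR1F had the smallest adjusted p of these, 0.124 (limma).

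The single copies given next have the smallest p among those whose groups did not overlap. Their separation thus follows from the choice, beside 5.43% (higher) and 3.86% (lower) of all copies tested. Other copies, not named here, shared their smallest adjusted p. On the higher side, beside the Gm8995, Pvr and Fbln2 copies, an RSINE1 copy in an intron of Fosl1, a subunit of AP-1, gave 0, 0, 2.88 and 0 against 7.25, 14.6 and 9.16 (2.96 ± 0.59, adjusted p = 0.0505, limma). An RSINE1 copy in the noncoding gene 5430416N02Rik gave 123, 198, 137 and 114 against 381, 204 and 641 (1.39 ± 0.30, adjusted p = 0.0624, limma). On the lower side, a B1_Mur2 copy in the 3' UTR of Gusb, the lysosomal beta-glucuronidase, gave 7.37, 10.6, 1.92 and 7.28 against 0 in all 3 Balb/c-2 libraries. That is at least 1.95-fold lower against the floor of 3 reads per library, and rep2 gave 3.99, 5.53 and 3.03. A PB1D10 copy in an intron of Incenp gave 15.7, 18.5, 19.2 and 10.4 against 4.83, 1.12 and 0. An L2b copy in an intron of B3gat3 gave 4.61, 8.83, 8.65 and 13.5 against 1.21, 0 and 2.29, while rep2 gave 10.6, 7.74 and 10.6. An MTEb copy in the 3' UTR of D3Ertd751e gave 24, 7.95, 12.5 and 17.7 against 2.42, 6.72 and 1.15, and an intergenic ORR1B2 copy at chr10:120903771-120904196 gave 11.1, 18.5, 12.5 and 19.8 against 0, 10.1 and 1.15. These lower copies each had an adjusted p of 0.0505 (limma), and most rest on few reads.

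Tested copies were also counted by their place in genes, on the deposited scale and with no test between places. Of 8414 copies in 3' UTRs, 8.88% were higher and 3.83% lower without overlap, with a median log2 fold change of 0.11. Of 512 copies in 5' UTRs, 2.73% were higher and 8.98% lower, with a median of -0.10. Introns were even (3.77% and 3.48% of 14031), and coding exons gave 6.24% and 4.94%, intergenic copies 5.95% and 3.75%, and other noncoding exons 3.96% and 4.20%. As a share of a library's signal, 5' UTR copies took 2.23% ± 0.0876 (SD, n = 4) in Balb/c-1 and 1.94% ± 0.131 (SD, n = 3) in Balb/c-2. The groups did not overlap (exact two-sided permutation test, p = 0.0571, the smallest that 4 against 3 allows; adjusted p = 0.343 over the 6 shares). The rep2 libraries had 2.38%, 2.18% and 2.24%. The 3' UTR share was 49.8% ± 2.82 (SD, n = 4) and 50.4% ± 3.76 (SD, n = 3), with an exact permutation p of 0.8. The intron share was 20.4% ± 2.86 (SD, n = 4) and 20.6% ± 3.15 (SD, n = 3), with an exact permutation p of 1. By chromosome, the median shift of exon copies between the passages ran from -0.09 on chromosome 15 to 0.11 on chromosome 18.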

How the data were processed

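Poly(A) RNA of cells from 4 Balb/c-1 and 3 Balb/c-2 tumours was compared. The deposited values are signal per annotated repeat copy: reads that the authors divided by 1 factor per library, as the values show. At least 99.9995% of each library's values above 0 were whole multiples of 1 step, within 0.1 of a read. That step was fitted to the low values of the library. Those whole reads were recovered for count tests. The submitters' processing notes name the mm10 build, featureCounts 1.5.0-p3, StringTie 1.3.3b and HISAT2 2.0.5, and do not say how reads that fit several copies were handled. All columns of per-sample values were mapped to a sample (0 left over).

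A feature was tested where its mean signal over the 40 libraries reached 5. The test was limma 3.58.1 (R 4.3.3) on log2(signal + 1), with 1 mean per group over 11 groups, trended prior, so that all groups share 1 estimate of spread. Copies were placed on GENCODE M21 exons with bedtools 2.31.1 and summed per host gene. Alternatives used edgeR 4.0.16, DESeq2 1.42.0, TMM factors, other filters and pseudocounts, a block by tumour letter, the rep2 libraries and each library left out; the code was tested on simulated data. The named features are the called host genes, up to 5 uncalled non-overlapping features per direction with the smallest p, the highest members of each list, and 6 subfamilies always described. List members without overlap, and Pvr and Hpse, were named after their values were seen. The members, the 17 gene and marker lists and the 23 repeat lists were chosen with earlier results of these data known. The main test did not pair the groups by letter, since the sources used here do not say whether same-letter tumours are related. Same-letter deviations correlated at 0.366 (A), 0.226 (B) and -0.0198 (C) over 5029 copies. Different-letter pairs across the passages ran from -0.387 to 0.128, so the A and B namesakes had the highest of these correlations. Pairs within a passage were not compared in this way. Results for some genes are not reported here.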

Additional observations from a re-analysis of the deposited data

Results flagged for a closer look

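Of 45 results checked for a Balb/c-1 library far from the other 3, 5 passed the limit, and chance alone flags about 1 in 20 groups. That rate does not hold for groups mostly at 0, where any read is flagged, or for results that share signal, as IAP and IAPEz-int do. Summed IAP signal was 29225 in Balb/c-1 A, against 13996 to 15741 in the other 3, and IAPEz-int alone was at 20058 there. Ctla2a stood at 176 in Balb/c-1 A. In the copies of Fbln2 and Gm8995, at 0 in 3 Balb/c-1 libraries, the library that stood apart was the 1 with any read, Balb/c-1 D at 1.04 and Balb/c-1 A at 2.76.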

How the results depend on the processing

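Counts of calls moved with most choices. Higher and lower single copies, 0 and 0 as reported, became 2 and 11 with TMM factors, 19 and 14 with DESeq2, 15 and 15 with a mean signal of at least 1, 1363 and 111 with no filter, 2 and 15 with a pseudocount of 0.5, 8 and 5 with a pseudocount of 5, 5 and 17 with intron share as a covariate, 6 and 12 without the rep2 group in the fit, 42 and 75 without both tumour B libraries (chosen after seeing the data), and 135 and 316 with rep2 in place of Balb/c-2. Called subfamilies became 5 higher with the covariate, 2 higher without both B libraries, and 15 and 26 with rep2. Called host genes, 4 and 6 as reported, became 2 and 4 with TMM factors, with a mean of at least 20 and with a pseudocount of 0.5, 2 and 1 with edgeR, 18 and 17 with DESeq2, 8 and 8 with a mean of at least 1, 45 and 21 with no filter, 5 and 3 with a pseudocount of 5, 1 and 0 from the 7 libraries alone, 12 and 9 with the covariate, 7 and 8 without the rep2 group, 61 and 66 without both B libraries, and 111 and 223 with rep2. With tumour letter as a replicate block, fitted on the 7 libraries, they were 0 and 0. This fit leaves Balb/c-1 D, the 1 tumour of its letter, without weight, and without Balb/c-1 D alone the counts were 0 and 1. The main test did not pair the groups by letter, and whether same-letter tumours are related is not known from the sources used here. Leaving out 1 library gave 0 to 28 higher and 1 to 102 lower copies, 0 to 14 higher and 0 to 0 lower subfamilies, and 0 to 37 higher and 0 to 48 lower host genes. The most host gene calls came without Balb/c-2 B (37 and 48) and without Balb/c-1 B (24 and 20). The difference in intron share, 0.20 percentage points, was -0.0922 over tested copies alone and ranged from -1.47 to 1.65 with 1 library left out. The cause of these moves was not tested.

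Log2 fold changes that changed sign were mostly small. RMER15 was at 0.13 in the main contrast, higher without overlap. With rep2 in place of Balb/c-2 it was at -0.30 and was called lower (adjusted p = 0.00166, limma). With rep2 they were 0.17 for L2b at chr19:8920847-8921141, -0.38 for IAPEz-int at chr3:75348451-75351749, 0.067 for MMERGLN-int at chr8:121832845-121841264, 0.60 for X7C_LINE, -0.13 for B1_Mm, -0.26 for B2_Mm2, 0.10 for RLTR10-int, 0.14 for MuLV-int, 0.15 for MT2B2, -0.17 for MTD, -0.13 for MTC, -0.30 for RMER15, -0.33 for L1MdGf_II, 0.033 for L1MdF_III, -0.099 for Lx9, -0.024 for PB1D10, -0.11 for B3, -0.059 for B3A, -0.049 for ID_B1, -0.0079 for RSINE1, 0.018 for MIR3, -0.092 for URR1A, -0.14 for MMTV-int, -0.28 for Ifit1, -0.26 for Fam208a, -0.071 for Pphln1, -0.0033 for Epha2, 0.49 for Itgav, 0.071 for Pfkl, -0.33 for Egln3, -0.19 for Shmt2, -0.051 for Impact, 0.067 for Pdgfrb. With DESeq2 they were -1.06 for IAPEz-int at chr3:75348451-75351749, -1.37 for IAPEz-int at chr3:75352188-75353268, -0.032 for MERVL-int, -0.079 for B1_Mm, -0.048 for RLTR45-int, -0.017 for MERVL_2A-int, -0.049 for MTD, -0.061 for MTC, -0.030 for PB1D10, -0.041 for B3, -0.073 for ID_B1, -0.016 for URR1A, -0.065 for MMTV-int, -0.037 for Shmt2. With edgeR they were -1.08 for IAPEz-int at chr3:75348451-75351749, -1.39 for IAPEz-int at chr3:75352188-75353268, -0.029 for MERVL-int, -0.078 for B1_Mm, -0.045 for RLTR45-int, -0.015 for MERVL_2A-int, -0.048 for MTD, -0.059 for MTC, -0.029 for PB1D10, -0.039 for B3, -0.071 for ID_B1, -0.014 for URR1A, -0.062 for MMTV-int, -0.033 for Shmt2. With TMM factors they were -0.031 for MERVL-int, -0.079 for B1_Mm, -0.035 for RLTR45-int, -0.014 for MERVL_2A-int, -0.050 for MTD, -0.059 for MTC, -0.029 for PB1D10, -0.039 for B3, -0.070 for ID_B1, -0.014 for URR1A, -0.057 for MMTV-int, -0.0065 for Shmt2. Without both B libraries they were -0.071 for RLTR45-int, -0.035 for MMTV-int, 0.020 for Kcnn4, -0.10 for Egln3, 0.020 for Fasn, 0.0056 for Acaca. Outside exons they were -0.17 for RLTR26_Mus, 0.36 for MER34A1, 0.20 for RLTR6-int, -0.75 for RLTR45-int, 0.13 for RLTR20A4, 0.098 for MT2B2, 0.087 for ORR1B1-int, 0.13 for L1MdF_III, -0.048 for ID_B1, 0.048 for MIRb, 0.059 for L2a. With the replicate block they were -1.05 for IAPEz-int at chr3:75348451-75351749, -0.22 for IAPEz-int at chr3:75352188-75353268, 0.15 for ETnERV-int, -0.0016 for MTD, -0.11 for MMTV-int, -0.057 for Ifit1, -0.044 for Apobec3, 0.080 for Kcnn4, -0.16 for Shmt2. With 1 library left out the sign changed within -2.87 to 2.78 for IAPEz-int at chr3:75348451-75351749, -2.30 to 3.56 for IAPEz-int at chr3:75352188-75353268, -0.20 to 0.041 for MMERGLN-int at chr8:121832845-121841264, -0.50 to 0.091 for IAPEz-int, -0.021 to 0.15 for MERVL-int, -0.016 to 0.037 for B1_Mm, -0.19 to 0.15 for ETnERV-int, -0.13 to 0.033 for RLTR10-int, -0.013 to 0.13 for RLTR45-int, -0.0053 to 0.092 for MTD, -0.035 to 0.092 for MTC, -0.15 to 0.0012 for L1MdF_III, -0.015 to 0.040 for ID_B1, -0.16 to 0.16 for MMTV-int, -0.057 to 0.63 for Ifit1, -0.0045 to 0.73 for Tapbp, -0.062 to 0.37 for Samhd1, -0.17 to 0.67 for Apobec3, -0.45 to 0.18 for Spred3, -0.29 to 0.10 for Kcnn4, -0.24 to 0.70 for Postn, -0.46 to 0.088 for Pfkl, -0.14 to 0.24 for Egln3, -0.16 to 0.16 for Shmt2, -0.040 to 0.20 for Xbp1, -0.74 to 0.12 for Acaca, -0.012 to 0.31 for Impact, -0.12 to 0.18 for Airn, -0.22 to 0.22 for Myo5a, -0.28 to 0.23 for Pdgfrb. Of 3776 alternative values for 179 named results, 3382 kept their direction and side of the threshold, 144 passed it anew, 87 no longer passed and 163 changed sign. Depth limits copies with few reads, since 1 read was worth up to 1.21 of signal.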
